A study of Rattus norvegicus with 5 samples.

Results

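The regions described here are intronic peaks of the DNA modification N6-methyladenine (6mA) that were found in rat Astrocytes, Neurons and NSCs alike. Each one is a peak of the Neuron list that was annotated to an intron and to no promoter, upstream or downstream 2 kb window, exon, CpG island or CpG island shore. It also overlapped, by at least 1 bp, a peak of the Astrocyte list and a peak of the NSC list. The rule held for 16914 of 42153 intronic Neuron peaks, out of 137579 Neuron peaks in all. They are called shared intronic peaks below, and the other 25239 intronic Neuron peaks, which lacked an Astrocyte peak, an NSC peak or both, are the unshared ones. Presence in the 3 lists chose these regions, so their scores, folds and widths in those lists are given as a description with no test.

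The study enriched fragments of rat genomic DNA with an antibody against 6mA and sequenced them. The cells were Astrocytes, Neurons and NSCs, neural stem cells of the SCR022 line. Each cell type gave 1 immunoprecipitated library, and the samples include inputs of Neurons and NSCs, so the 5 libraries hold no replicate. The Astrocyte peak list is named against an Astrocyte input, which has a row in the authors' mapping summary but is not among the samples analysed here, so the depth behind each Astrocyte fold over input was not used. The series title concerns the methyltransferase N6amt1 and the gene Txnrd3 in hippocampal neurogenesis. The labels give no genotype, treatment or time for any of them, and for the Astrocytes and Neurons no origin. Cell identity could not be checked against marker genes, since DNA peaks give no expression level.

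6mA is an adenine that carries a methyl group on its amino nitrogen. It is abundant in bacterial genomes, where it marks host DNA for restriction systems and mismatch repair, and its amount and role in mammalian DNA are disputed. Introns are the transcribed stretches that splicing removes, and genes of synaptic adhesion, receptors and ion channels have some of the longest introns in the genome. An antibody enriches fragments and not single bases, so a peak says where fragments gathered and does not count methylated adenines.

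Uniquely mapped reads numbered 13866225 in the Astrocyte, 13930646 in the Neuron and 13785430 in the NSC immunoprecipitated library. The Neuron and NSC inputs had 22212721 and 27729210. Depth among the 3 enriched libraries was close, yet the Neuron list was the longest, with 137579 peaks beside 116091 in Astrocytes and 121816 in NSCs. Positions are those of the files, and the sources used here name no genome build. Scores, which are 10 times the −log10 p, and folds over input are the authors' own values for each peak. Folds of separate lists stand side by side and were not tested against each other.

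Shared intronic peaks made up 40.1% of intronic Neuron peaks (95% exact Clopper-Pearson interval 39.7 to 40.6%), beside 38.6% of all Neuron peaks found in the 3 lists. Intervals here cover counting error only, because neighbouring peaks and reads of 1 library are not independent. Of the unshared intronic peaks, 5169 met an Astrocyte peak but no NSC peak, 5280 met an NSC peak but no Astrocyte peak, and 14790 met neither. Neuron peaks with no annotated class, which lie outside genes, were found in all 3 lists in 31682 of 84003 cases, or 37.7% (37.4 to 38.0%). The intronic share was thus higher by 2.41 percentage points (1.84 to 2.98). When the peaks without a class were weighted to the same mix of Neuron scores as the intronic ones, their share was 39.8% and the difference was 0.300 points. Peaks of the remaining classes were shared at 41.1% for exons, 39.8% for promoters, 39.5% for mixed classes and 34.7% for CpG islands and shores. Intronic position therefore went with a share near that of most other classes.

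How strong the Neuron peak was separated the shared from the unshared far more than where it lay. In the weakest 10% of intronic Neuron peaks by score, 9.51% were shared. The share was 21.4% in the fifth decile, 41.5% in the seventh, 65.6% in the eighth and 93.0% in the ninth. In the strongest decile it was 99.9%. Peaks with no annotated class followed nearly the same course, with 9.54% in the weakest decile, 22.0% in the fifth, 64.5% in the eighth and 99.9% in the strongest. A peak must pass the authors' score minimum of 50 in every list to count as present, and peaks close to that minimum in Neurons were mostly absent from at least 1 of the other lists.

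**Figure D1:**
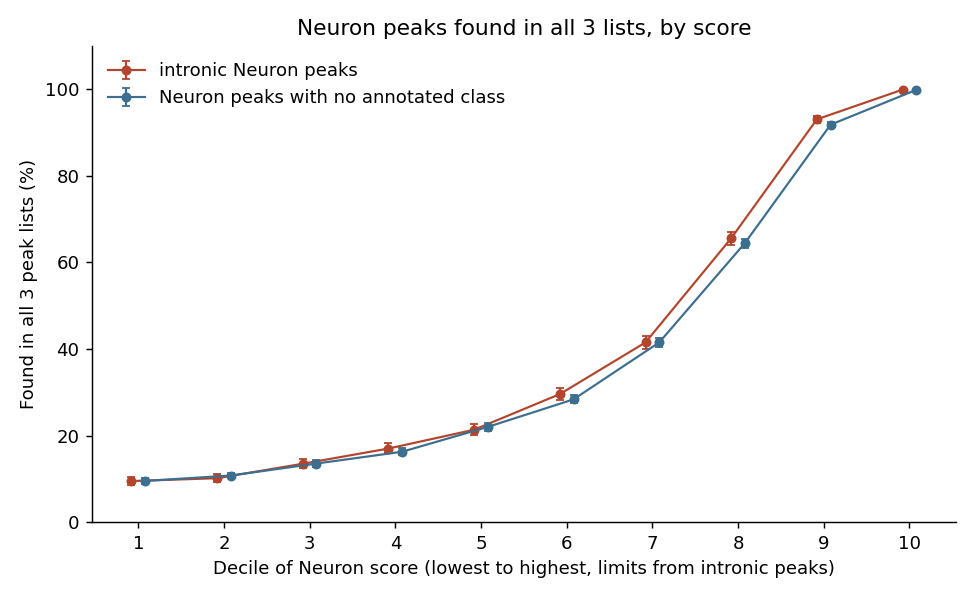
The share of Neuron peaks found in all 3 lists (%, vertical axis) is plotted by decile of Neuron score for intronic peaks (red) and for peaks with no annotated class (blue), with 95% exact intervals as bars. Both curves climb from about 9.5% in the weakest decile to 99.9% in the strongest and stay close to each other.

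Shared peaks were taller and wider than the other intronic peaks in each list, which follows in part from the rule. In the Astrocyte list the peaks that met a shared intronic peak had a median fold over input of 17.8, against 10.4 for the other intronic peaks of that list. The medians were 19.4 against 10.9 in the Neuron list and 17.2 against 10.5 in the NSC list. Median scores were 184 against 68.0 in Astrocytes, 212 against 70.5 in Neurons and 174 against 68.1 in NSCs. The shared peaks had a median width of 556 bp in Astrocytes, 579 bp in Neurons and 578 bp in NSCs, against 392, 411 and 411 bp for the others. The ranges overlapped in their lower part, and only shared peaks reached the highest folds. Shared peaks ran from 3.42 to 275 in Astrocytes, 3.99 to 343 in Neurons and 4.03 to 227 in NSCs. The other intronic peaks ran from 3.16 to 43.3, 3.11 to 42.25 and 3.19 to 50.0 in the same order. Many folds repeat exactly: the commonest Neuron value, 10.87, was carried by 6429 peaks, and 208 of these were shared intronic peaks. A fold near that value is therefore a coarse step rather than a fine scale.

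**Figure D2:**
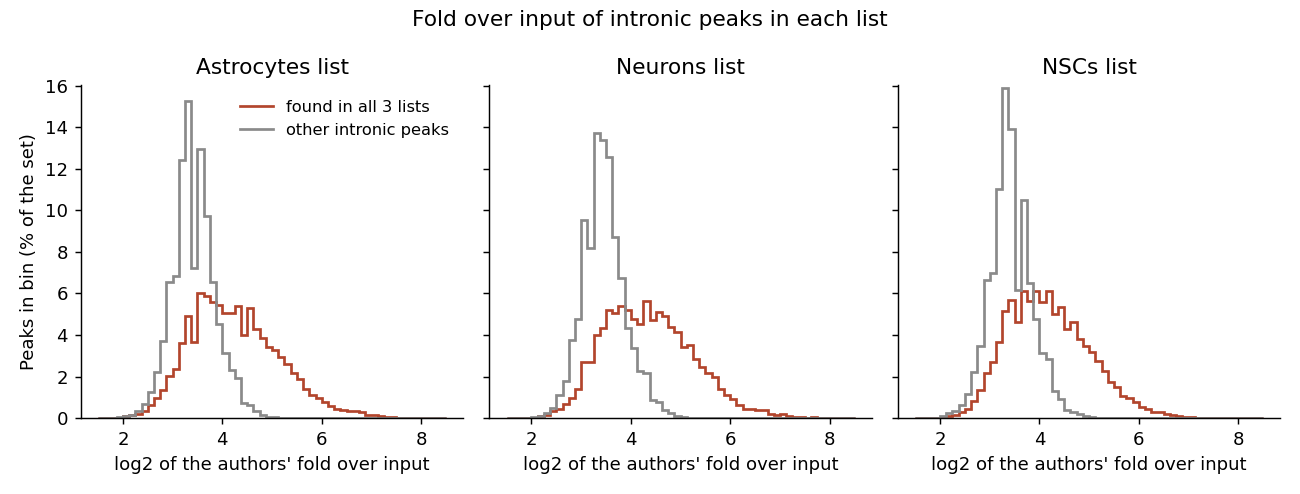
Histograms of the log2 of the authors' fold over input show intronic peaks of the Astrocyte, Neuron and NSC lists, as a percent of each set, with shared peaks in red and the other intronic peaks of that list in grey. The median fold of the shared peaks was 17.8, 19.4 and 17.2 in the 3 panels, and their highest folds were 275, 343 and 227.

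The order of strength was broadly kept between cell types. Across the 16914 shared intronic peaks, the Spearman rho of fold was 0.737 between Astrocytes and Neurons, 0.688 between Astrocytes and NSCs and 0.685 between Neurons and NSCs. These are descriptions over peaks that share their libraries, not over samples. Every intronic peak among the top 1% of a list by fold was present in all 3 lists, with 404 such peaks in Astrocytes, 456 in Neurons and 394 in NSCs. The same regions were not always at the top: of 704 shared intronic peaks in the top 1% of at least 1 list, 178 (25.3%) were in the top 1% of all 3. For the top 10% the corresponding numbers were 2283 of 6144 (37.2%).

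The strongest shared peaks by their worst rank over the 3 lists lay in genes of various roles. The leading one lay in Dym, which encodes the Golgi protein dymeclin, on chromosome 18 from 71245995 to 71246503, with a fold of 252 in Astrocytes, 209.6 in Neurons and 125 in NSCs. Rreb1, a zinc finger transcription factor, held a peak on chromosome 17 from 27564662 to 27565349 with folds of 162, 149 and 227 in the same order of cells. That peak had the highest fold of any shared intronic peak in NSCs. Rpgrip1l, a protein of the ciliary transition zone, held a peak on chromosome 19 from 17179963 to 17180631 with folds of 142 in Astrocytes, 173 in Neurons and 137 in NSCs, the most even of these first 3.

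Utrn, the cytoskeletal linker utrophin, carried folds of 174 in Astrocytes, 141 in Neurons and 144 in NSCs. Map2k1, a kinase of the ERK cascade, had 264, 156 and 107, and Kcnip2, a subunit that binds A-type potassium channels, had 147, 235 and 106. The intronic peaks of Fryl, Slc9b2, Asz1 and Dnah7 completed the leading 10. Their folds were 151 to 221 in Astrocytes, 133 to 137 in Neurons and 129 to 159 in NSCs. Among shared intronic peaks, the highest fold in Astrocytes was 275, at a peak in Pde3a, a cyclic nucleotide phosphodiesterase. That peak had 192 in Neurons and 65.3 in NSCs. The highest fold in Neurons, at 343, lay in the uncharacterised LOC108351233, which had 196 in Astrocytes and 123 in NSCs.

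The peaks of the 3 lists coincided closely in position. The median overlap with the Astrocyte partner was 481 bp, or 88.2% of the Neuron peak, and with the NSC partner 487 bp, or 89.5%. At least 50% of the Neuron peak was covered in 16414 cases by Astrocyte peaks and in 16523 cases by NSC peaks. The median distance between centres was 49.5 bp for Astrocytes and 52.5 bp for NSCs, and the median signed shift was 1 bp and 0 bp. A stretch common to the Neuron peak and its partner of largest overlap in each other list existed for 16872 shared intronic peaks. The median over all shared intronic peaks was 439 bp. The remaining 42 met these Astrocyte and NSC partners in different places, and further partners were not checked. A pair or more of partners was met by 194 shared peaks in Astrocytes and by 191 in NSCs.

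Few regions sat at the limit of the rule. Overlaps of at most 10 bp admitted 12 shared peaks, while 10 unshared intronic peaks missed a partner by at most 10 bp. Just inside were 2 peaks of Vps13a, a lipid transfer protein, with overlaps of 1 and 3 bp, and a peak of Casq2, a calcium-binding protein of the sarcoplasmic reticulum, with 1 bp. The first Vps13a peak had folds of 4.78 in Astrocytes, 6.29 in Neurons and 4.03 in NSCs, all within the lowest 5% of shared peaks. Just outside were a peak of Ccdc60 that touched its NSC neighbour with a gap of 0 bp, a peak of Tmem132c with a gap of 2 bp to an NSC peak, and a peak of LOC102548492 with a gap of 2 bp to an Astrocyte peak. Their Neuron folds were 18.5, 18.4 and 13.0.

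The widest shared peaks were not those with the highest folds. They were a 5132 bp peak of LOC100362092 on chromosome 6, a 4932 bp peak of Apoo, a mitochondrial inner membrane protein, on chromosome X, and a 4190 bp peak of Csrnp3, a nuclear transcription regulator, on chromosome 3. The peak of LOC100362092 had folds of 4.13 in Astrocytes, 4.35 in Neurons and 5.09 in NSCs. The Apoo peak had folds of 38.2, 48.3 and 42.6, so folds differed widely among these 3. Its scores were high, at 2722 in Astrocytes and 3100 in both Neurons and NSCs.

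Shared intronic peaks fell in 6931 of the 11132 genes that held an intronic Neuron peak (62.3%). Most of these genes, 3795, held 1, and 2310 held 2 to 4. The 260 genes with 10 or more held 3966 shared peaks, or 23.4%. Of the 6931 names, 1810 were placeholders, and 5080 of the other 5121 matched a RefSeq rat symbol or synonym.

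The genes with most shared intronic peaks were long genes of several kinds. Rbms3, an RNA-binding protein, had 51 shared peaks of 81 intronic Neuron peaks, over 755 kb of chromosome 8. Sdk1, a homophilic adhesion molecule that guides synaptic layering in the retina, had 51 of 90 on chromosome 12, and Prkg1, the cGMP-dependent protein kinase, had 50 of 95 on chromosome 1. The gene with the highest share among these leading 10 was Rbms3, at 63.0%, and Ctnna3 had the lowest, at 35.6%. The strongest shared peak of Sdk1 had folds of 105 in Astrocytes, 102 in Neurons and 89.0 in NSCs. That of Prkg1 had 96.1, 129 and 42.4, and that of Rbms3 had 69.5, 75.9 and 47.4.

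Dpp10, an accessory subunit of A-type potassium channels, had 44 shared of 115 intronic Neuron peaks, and Ctnna3, an alpha-catenin of cell junctions, had 42 of 118. The placeholder LOC100362819 had 33 of 74, and St6galnac5, a sialyltransferase that builds gangliosides, had 33 of 79. Cdh13, a cadherin anchored by a lipid, had 32 of 51, and Fam155a (now Nalf1), an auxiliary subunit of a sodium leak channel, had 32 of 52. Long genes collect more peaks of any kind, so a number of shared peaks is read here beside the gene's number of intronic peaks.

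**Figure D3:**
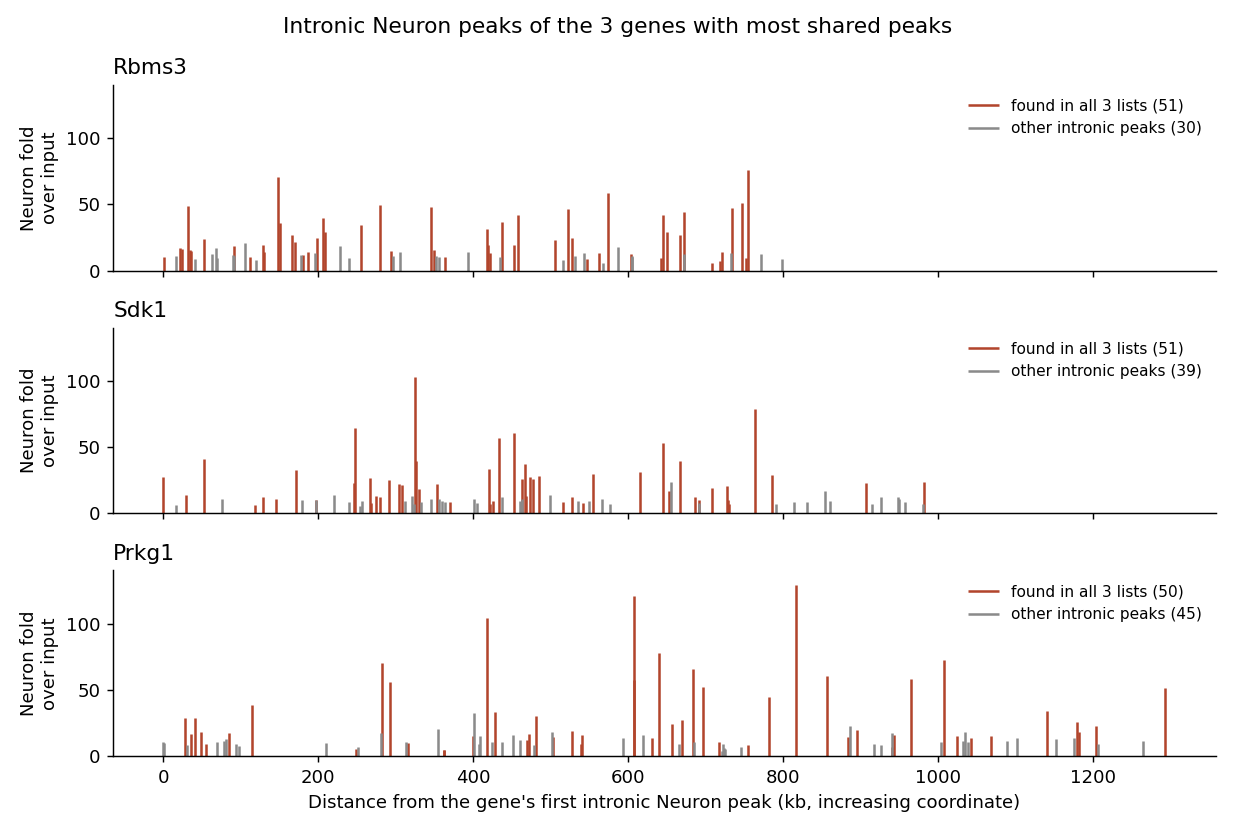
Intronic Neuron peaks of Rbms3, Sdk1 and Prkg1 are drawn as vertical lines at their distance from the gene's first intronic Neuron peak (kb), with the authors' Neuron fold over input as height, shared peaks in red and unshared ones in grey. Shared and unshared peaks are interspersed along each gene, and the tallest lines, up to 129 in Prkg1, are red.

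Among the 889 genes with at least 10 intronic Neuron peaks, the median share of shared peaks was 40.0%, with quartiles of 30.0 and 50.0%. The 95% interval of a gene lay above 40.1% for 36 genes and below it for 40. Among 889 intervals some fall outside by counting error alone, and these genes as a set were not held against their peaks' scores. The highest share was that of LOC100362092, with 9 of 10 peaks shared. Erg, an ETS transcription factor of blood vessels and blood, LOC361016, Plcg2, a phospholipase C of immune receptor signalling, and Sh3rf1, a scaffold of JNK signalling, had 8 of 10 each. From the Neuron scores of their peaks alone, the shares would have been 49.9% for LOC100362092, 58.7% for Erg, 53.9% for LOC361016, 58.8% for Plcg2 and 77.8% for Sh3rf1.

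At the other end, 7 of these genes had no shared peak at all. Gna14, a G protein alpha subunit, and Gphn, the gephyrin scaffold of inhibitory synapses, had 0 of 13 each. Ankdd1b and Cux1, a homeobox transcription factor of upper cortical layers, had 0 of 12 each. Clasp1 and Smchd1, which also had none, fall outside the naming rule and are named for completeness after their values were seen. A share of 0 of 13 allows up to 24.7% by the exact interval. The share computed from the peaks' scores was 21.2% for Gphn and 19.5% for Cux1, within their intervals. It was 32.3% for Gna14 and 32.5% for Ankdd1b, above the limits of 24.7% and 26.5%, and these were ends picked from 889 genes.

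Of the genes in the series title, Txnrd3, a thioredoxin reductase that also carries a glutaredoxin domain, had 3 intronic Neuron peaks. The shared one, on chromosome 4 from 121645578 to 121646287, had folds of 9.97 in Astrocytes, 8.62 in Neurons and 11.2 in NSCs. The other 2, from 121639204 to 121639585 and from 121641828 to 121642324, had Neuron folds of 13.0 and 11.6 and met no peak in Astrocytes or NSCs. Thus the shared Txnrd3 peak was the one with the lowest Neuron fold, and all its folds were below the medians of shared peaks. By Neuron score it was the middle one, at 77.6, beside 114.7 and 56.9 for the other 2. Txnrd2, the mitochondrial thioredoxin reductase, had 1 intronic Neuron peak, which was shared, with folds of 13.1, 18.7 and 11.2. N6amt1 had no intronic Neuron peak.

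Peaks were then grouped by the role of the gene that held them. Over 4559 intronic Neuron peaks of genes in 17 lists, 1666 (36.5%) were shared, beside 40.1% for all intronic Neuron peaks. Among receptors of transmitters, glutamate receptor genes had 174 shared of 435 (40.0%, 35.4 to 44.8%). Grm8, a metabotropic receptor, led with 25 of 61, and its strongest shared peak had folds of 76.4 in Astrocytes, 65.2 in Neurons and 57.7 in NSCs. GABA receptor and synthesis genes had 51 of 163 (31.3%, 24.3 to 39.0%), led by the GABA-B receptor subunit Gabbr2 with 17 of 29. Its strongest shared peak had folds of 36.3, 40.8 and 28.8. The GABA interval lay below 40.1% and the glutamate interval included it. From the Neuron scores of the GABA genes' peaks alone the share would have been 32.5%.

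Genes of voltage-gated channels and their partners had 246 shared of 631 (39.0%, 35.2 to 42.9%), led by Dpp10, described above. Synaptic adhesion and scaffold genes were the largest group and had 455 of 1361 (33.4%, 30.9 to 36.0%), below 40.1%, with 35.6% computed from their scores. Negr1, a lipid-anchored adhesion protein, led with 29 of 59, while Cntnap2, a neurexin-like protein of axons, had 15 of 78. Negr1's strongest shared peak had folds of 44.4 in Astrocytes, 65.0 in Neurons and 33.2 in NSCs. Axon guidance genes had 176 of 491 (35.8%, 31.6 to 40.3%), led by the Slit receptor Robo2 with 18 of 63. Large genes of common fragile sites had 263 of 739 (35.6%, 32.1 to 39.2%), led by Ctnna3, and 37.7% computed from their scores.

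Neural stem cell genes stood at the upper end, with 42 shared of 79 (53.2%, 41.6 to 64.5%), beside 47.3% computed from their scores. Sox5, a transcription factor of neural progenitors and deep layer neurons, had 20 shared of 28 peaks (71.4%). This gene supplied nearly as many shared peaks as the rest of the list, so the high share of the list leaned on it. The strongest shared Sox5 peak, on chromosome 4, had folds of 68.1 in Astrocytes, 78.0 in Neurons and 71.5 in NSCs. Genes of Notch, Wnt and BMP signalling had 103 of 218 (47.2%, 40.5 to 54.1%), led by the Notch coactivator Maml2 with 24 of 39 and followed by Maml3 with 22 of 44. The scores of this group's peaks alone gave 46.1%, within its interval.

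Neuronal fate genes had 49 shared of 172 (28.5%, 21.9 to 35.9%), beside 34.0% computed from their scores. Celf4, a neuronal RNA-binding protein, led with 12 of 20. Astrocyte genes had 66 of 155 (42.6%, 34.7 to 50.8%), led by the heparan sulfate proteoglycan Gpc5 with 27 of 64, whose strongest shared peak had folds of 82.7 in Astrocytes, 77.3 in Neurons and 71.5 in NSCs. Oligodendrocyte genes had only 10 intronic Neuron peaks, of which 3 were shared, among them the single peak of Opalin, a myelin membrane protein, at folds of 12.7, 17.3 and 15.0.

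Chromatin enzyme genes had 42 shared of 143 (29.4%, 22.1 to 37.6%), led by the deacetylase Hdac9 with 10 of 27. Its strongest shared peak reached folds of 122 in Astrocytes, 107 in Neurons and 42.0 in NSCs. The adenine methylation list covers RNA as well as DNA, so its genes do not all act on the mark profiled here. It holds enzymes that write or erase the methyl group, their cofactors and proteins that read it. Genes of this list had 7 of 22 (31.8%, 13.9 to 54.9%), and the demethylase Fto held 5 of these 7. Redox genes had 12 of 23 (52.2%, 30.6 to 73.2%), with all 3 intronic peaks of Nqo1, a quinone reductase, shared. Cell cycle genes had 21 of 47 (44.7%, 30.2 to 59.9%), led by the phosphatase Cdc14a with 6 of 11. The strongest shared peaks of Fto, Nqo1 and Cdc14a had Neuron folds of 32.5, 38.5 and 43.9. The 36 ribosomal protein genes of the list held no intronic Neuron peak. Of the 14 lists with at least 20 peaks, 2 had intervals wholly above 40.1% and 5 wholly below. Computed from scores, the share lay on the same side of 40.1% in each of these 7.

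**Figure D4:**
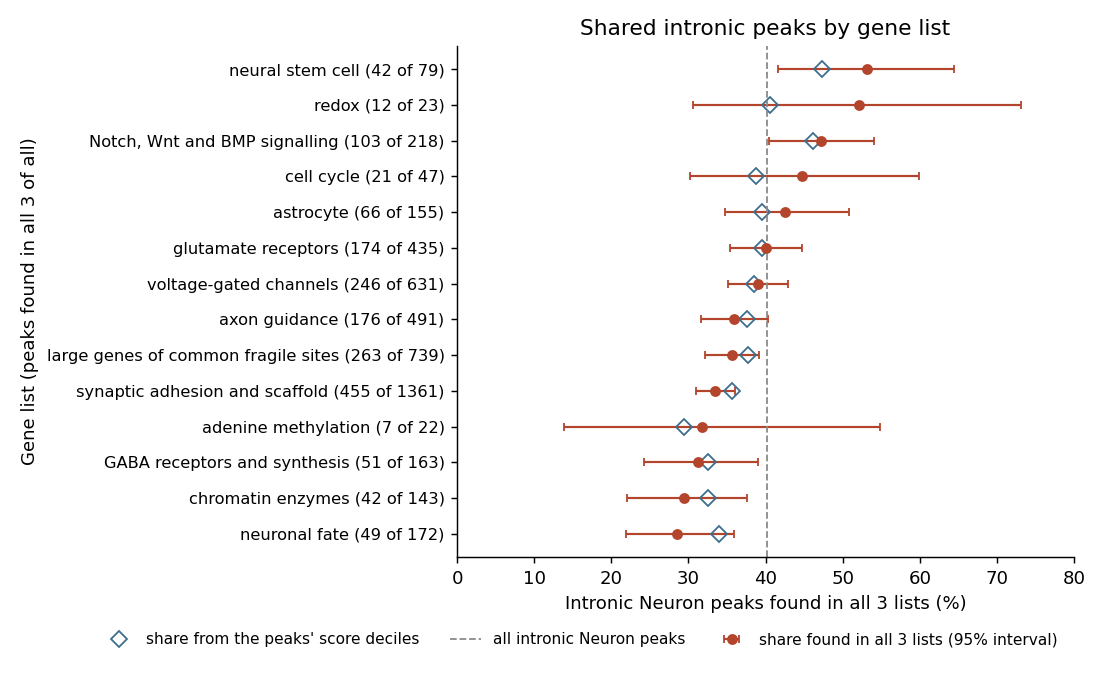
For the 14 gene lists with at least 20 intronic Neuron peaks, red points give the percent found in all 3 lists with 95% exact intervals, open diamonds the percent computed from the peaks' score deciles, and the dashed line the 40.1% of all intronic Neuron peaks. Neural stem cell genes lie at 53.2% and neuronal fate genes at 28.5%, and the diamonds fall inside every red interval.

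The share of intronic Neuron peaks that were shared varied moderately over the autosomes, from 36.8% on chromosome 3 to 50.1% on chromosome 12. Chromosome 12 also had stronger peaks, with 49.5% computed from their scores. Chromosome X had 307 shared of 1239 (24.8%, 22.4 to 27.3%), below every autosome. Its peaks were weaker, with a median Neuron score of 75.9 beside 90.7 over autosomes, and the share computed from their scores was 28.9%, just above the interval. Neuron peaks on X with no annotated class were found in all 3 lists at nearly the same 24.1%.

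Shared intronic peaks lay at a median of 17.7 kb from the next shared peak of the same gene, and 20.8% of these gaps were under 5 kb. Where the preceding intronic peak of the gene was shared and under 5 kb away, 47.0% of peaks were shared (45.5 to 48.5%, n = 4289), beside 44.4% computed from their scores. After an unshared peak under 5 kb away it was 38.5% (37.3 to 39.8%, n = 5882), with 39.2% computed from scores. At gaps of 5 kb to under 20 kb the shares were 42.5% after a shared peak and 39.2% after an unshared one. Computed from scores they were 42.7% and 39.1%. At gaps of 20 kb or more the shares were 37.6% after a shared peak and 37.4% after an unshared one, with 38.7% and 37.2% computed from scores. Beside the shares computed from scores, presence in all 3 lists was thus slightly clustered under 5 kb and not detectably so at longer gaps.

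The authors also compared the immunoprecipitated libraries with each other, and their 6 comparison lists give regions that were higher in 1 cell type than in another. The same libraries made these lists and the peak lists, so the rule bears on what follows and the shares are a description. Of the shared intronic peaks, 12857 (76.0%) met no comparison region, against 12275 (48.6%) of the unshared ones. No such share was counted over all Neuron peaks, and unshared peaks lack a peak in another cell type by construction. Regions of the lists were held at the authors' own score minimum of 50.

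In the comparison of Astrocytes with Neurons, 318 shared intronic peaks (1.88%) met a region higher in Astrocytes, against 0.218% of unshared ones and a background of 0.791% over all Neuron peaks. A region higher in Neurons was met by 1260 shared peaks (7.45%), against 31.3% of unshared ones and a background of 22.1%. In the comparison of Astrocytes with NSCs, 939 (5.55%) met a region higher in Astrocytes, against 5.76% of unshared peaks and a background of 5.41%. A region higher in NSCs was met by 902 (5.33%), against 7.55% and a background of 6.66%. In the comparison of Neurons with NSCs, 1569 (9.28%) met a region higher in Neurons, against 26.9% and a background of 19.7%. A region higher in NSCs was met by 561 (3.32%), against 0.555% and a background of 1.71%. Neuron peaks with no annotated class found in all 3 lists had similar shares to the shared intronic peaks. In the same order of lists they were 1.69, 7.33, 5.04, 5.51, 8.77 and 3.49%.

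How the lists arose bears on these numbers. All regions counted start from Neuron peaks, so an unshared peak is by construction one that Neurons have and another cell type lacks. The lists of both directions were also made differently: 78.1 to 84.3% of the regions higher in the first cell type had the coordinates of that cell type's own peak, against 31.9 to 37.1% of regions in the opposite direction. In the authors' deposited table of each comparison, the regions that met shared intronic peaks had a median fold of 5.48 to 5.77, against 9.29 to 10.02 over all regions of the list. At a shared peak the rule requires a called peak in both libraries compared, which other regions of a list need not have. The lower folds at shared peaks therefore follow in part from the rule.

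**Figure D5:**
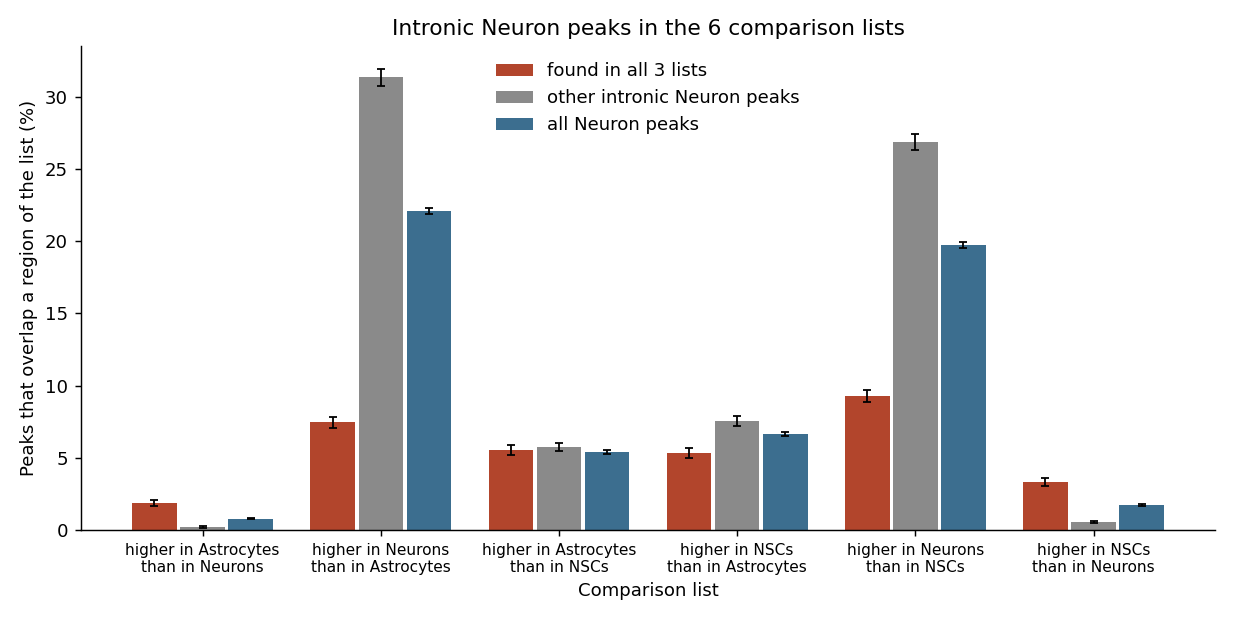
Bars give the percent of intronic Neuron peaks that overlap a region of each of the 6 comparison lists, for shared peaks (red), unshared intronic peaks (grey) and all Neuron peaks (blue), with 95% exact intervals. Shared peaks stand lowest in the lists of regions higher in Neurons, at 7.45 and 9.28%, and highest in those of regions higher in Astrocytes or NSCs than in Neurons, at 1.88 and 3.32%.

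Strong shared peaks met regions higher in Neurons more often than weak ones. In the lowest 25% of shared peaks by Neuron score, 0.189% met a region higher in Neurons than in NSCs, and in the highest 25% it was 20.0%. For regions higher in NSCs than in Neurons the shares were 6.10% at the lowest scores and 1.73% at the highest. Regions higher in Neurons than in Astrocytes were met by 0.260% of the lowest-scoring and 11.8% of the highest-scoring peaks. For regions higher in Astrocytes than in NSCs, which do not involve the Neuron library, the shares were 1.49% and 10.8%. Regions higher in NSCs than in Astrocytes do not involve it either, and their shares were 4.00% and 5.51%, with 6.74% in the third quartile. Shares by quartile were not counted over all Neuron peaks. The Neuron score that sorts the shared peaks comes from a library used in 4 of the 6 lists.

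The comparison regions described next are those with the 3 largest folds per list among regions that met shared intronic peaks; each list holds larger folds elsewhere. In the authors' deposited table of regions higher in Neurons than in Astrocytes, a region in Dscam, an adhesion molecule of neurite self-avoidance, had a fold of 13.2, and its peak had folds over input of 10.2 in Astrocytes, 31.9 in Neurons and 9.66 in NSCs. Among regions of that authors' deposited table that met shared intronic peaks, the folds above it were 17.9 in LOC102551006 and 15.2 in R3hdm2. At shared peaks in the authors' deposited table of regions higher in Neurons than in NSCs, Tnik, a kinase of the postsynaptic density, had 14.9 and Sorcs2, a sortilin-family receptor, had 14.7, after LOC108350871 with 15.5. Over input, the Tnik peak had folds of 46.7 in Astrocytes, 53.1 in Neurons and 9.97 in NSCs, a low NSC value that its choice favours. The Sorcs2 peak showed the same order, with 36.6, 51.9 and 13.8.

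Among the regions higher in Astrocytes than in NSCs that met shared intronic peaks, in the authors' deposited table, Itga4, an integrin subunit, had a fold of 14.5 and Chrm3, a muscarinic acetylcholine receptor, had 13.8, after LOC103693652 with 16.0. Over input, the Chrm3 peak had folds of 59.3 in Astrocytes, 31.4 in Neurons and 10.6 in NSCs. The authors' deposited table of regions higher in Astrocytes than in Neurons was led at shared peaks by Dennd4c, a Rab exchange factor, with 13.5, Tmem108, a dendritic membrane protein, with 12.4 and LOC103691934 with 12.2. The Dennd4c peak had folds over input of 16.5 in Astrocytes, 14.5 in Neurons and 11.3 in NSCs. Its comparison region, from 105179918 to 105180360, meets only the edge of the Neuron peak, which begins at 105180307. The region does not reach the Astrocyte peak whose fold is given, which begins at 105180443.

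Regions higher in NSCs at shared peaks included Gpc5 and Disp1. At shared peaks in the authors' deposited table of regions higher in NSCs than in Astrocytes, LOC108351430 had a fold of 18.2, the histone demethylase Kdm4c 15.9 and Gpc5 15.6. The Gpc5 peak had folds over input of 35.6 in Astrocytes, 45.9 in Neurons and 104 in NSCs, and it is another peak of that gene than the one given with the astrocyte genes. At shared peaks in the authors' deposited table of regions higher in NSCs than in Neurons, Disp1, which releases Hedgehog ligands, had 16.8, NEWGENE_1590969 had 14.4 and LOC684327 had 13.3. Over input the Disp1 peak had folds of 52.5 in Astrocytes, 16.6 in Neurons and 67.2 in NSCs, a low Neuron value that its choice favours.

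By gene list, most shares of shared peaks in the comparison lists had intervals that included the share over all shared intronic peaks. Axon guidance genes had 8 of 176 shared peaks (4.55%, 1.98 to 8.76%) among regions higher in Astrocytes than in Neurons, above 1.88%. Neural stem cell genes had 7 of 42 (16.7%, 6.97 to 31.4%) among regions higher in NSCs than in Astrocytes, above 5.33%. Large fragile-site genes had 0 of 263 among regions higher in Astrocytes than in Neurons, with an upper limit of 1.39%. Those were the only 3 among the 72 pairs of list and comparison that were counted. A few of 72 such intervals would fall outside by counting error alone. No link between these gene lists and a cell type is therefore drawn from the 3, and none was tested.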

How the data were processed

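The samples are 3 immunoprecipitated and 2 input libraries of genomic DNA. Reads were aligned with BWA, per the submitters' processing notes, without a version. Genome build, annotation and peak caller are not named in those notes or the files. Read counts per library come from the authors' deposited summary, of which 1 row, an Astrocyte input, had no sample here and was not used. The Astrocyte peak list is named against that input. The authors' peak score equals 10 times the −log10 p and is never under 50. The authors' fold is a ratio over input or, in 6 comparison lists, of 1 library over another.

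Peaks of separate lists were matched by overlap of at least 1 bp, with Python 3.11.15, pandas 2.3.3 and SciPy 1.17.1, and matching was tested on simulated data. Shares carry exact Clopper-Pearson 95% intervals. A share computed from scores is the mean, over a group's peaks, of the shared percentage in each peak's decile of Neuron score. With 1 library per group no p was computed. The regions and 17 gene lists were chosen with earlier results of these data known.

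Genes were named by a rule: the 10 regions with the best worst rank by fold, the 10 genes with most shared peaks, the 5 highest and 5 lowest shares among genes with at least 10 peaks, the leading gene of each list, the 3 largest folds per comparison, the title genes, and regions at the limits of the rule. Some genes that this rule names are not reported here.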

Additional observations from a re-analysis of the deposited data

How the results depend on the processing

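Shared intronic peaks numbered 16914, and 10801 with a score at or above the median of 87.44 in every list. The share of intronic Neuron peaks that were shared was 38.2% with 50% of the Neuron peak covered and 49.4% at the median score. For Neuron peaks with no annotated class it was 35.6% and 45.4%. The difference of both classes was 4.06 percentage points at the median score. At or above the median comparison score of 62.44, shared peaks that met regions higher in Astrocytes than in Neurons numbered 170, in Neurons than in Astrocytes 772, in Astrocytes than in NSCs 596, in NSCs than in Astrocytes 573, in Neurons than in NSCs 1033 and in NSCs than in Neurons 351. Fewer regions pass a stricter score by construction. The share over all Neuron peaks was not counted at this stricter score, so these 6 numbers have no background beside them. The number of shared peaks stayed within 1.5 times with 50% of the Neuron peak covered (16114), 50% of every peak (15480), any intron annotation (18732), the NSC list as start (16970), the Astrocyte list as start (17053) and touching peaks admitted (16915). Touching peaks and the score-weighted shares of lists and chromosomes were chosen after seeing the data. Synaptic adhesion and scaffold genes differed from all intronic Neuron peaks by -6.69 percentage points, by -11.0 at the median score and by -2.15 once weighted by score. Score weighting brought chromosome X to -4.09 points, beside -15.3 unweighted, and chromosome 12 to 0.598, beside 9.95. Signs changed only for differences whose interval includes 0: glutamate receptor genes stood at -0.13 points, at 0.163 with 50% covered and at 0.465 weighted by score. Weighting also turned voltage-gated channels (-1.14 to 0.451), adenine methylation (-8.31 to 2.33) and chromosomes 5 (-0.848 to 0.189), 8 (0.219 to -0.668) and 9 (-0.135 to 0.177). No paired analysis was possible because each cell type had 1 library. With 1 library per cell type, absence from a list cannot be told apart from a peak just under the score minimum at this depth.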
